A study of Mus musculus with 12 samples.

Results

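The oxidative phosphorylation genes of the nuclear genome were examined in C790 cells, a mouse melanoma cell line with mutant Nras, across 4 groups of 3 arrays each. The set has 37 genes, listed by name: 17 subunits of complex I, 4 of complex II, 6 of complex III, 6 of complex IV, 2 of ATP synthase, and the 2 regulators Ppargc1a and Tfam. A gene was read from the probe set (a group of short probes for a transcript) that carried that gene alone and had the highest mean over the 12 arrays. All 37 genes had such a probe set, out of 18193 genes on the array, and all but Ppargc1a lay above the background level on all 12 arrays. The study asked how partially reprogrammed melanoma cells differ from control cells and how each kind of cell answers a MEK inhibitor. All 4 groups carried a lentiviral vector with Oct4, Sox2 and Klf4 under a doxycycline-responsive element and a second vector for the constitutive transactivator with mCherry, and were selected with blasticidin. The −dox cells never received doxycycline, so they are controls with the factors not induced, and the +dox cells had the 3 factors induced. At day 20 of induction each kind of cell was given DMSO, the solvent, or trametinib, which blocks MEK and so the ERK pathway, for 72 h. The trametinib dose of the arrays is not given in the sources used here.

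The respiratory chain is the route by which mitochondria turn electrons from food into ATP. Complex I takes electrons from NADH and complex II from succinate, complex III passes them to cytochrome c, complex IV hands them to oxygen, and ATP synthase uses the resulting proton gradient. The chain is built from 2 genomes: a few core subunits are encoded in mitochondrial DNA and the others in the nucleus. Tfam packages mitochondrial DNA and helps to start its transcription. Ppargc1a encodes PGC-1α, a coactivator that raises transcription of such nuclear genes, and in melanocytes and a subset of melanomas its gene is a target of MITF, the master factor of the pigment lineage.

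Values are log2 intensities normalised by RMA, so a difference of 1 is a 2-fold change, and levels are compared only for the same gene. A gene was called higher or lower at an adjusted p under 0.05 (limma, Benjamini-Hochberg over all 18193 genes). The labels do not say whether same-group arrays come from separate cultures, so the p-values measure the spread between these arrays. The array of −dox DMSO replicate 1 stood furthest from its own group, at a mean Euclidean distance of 73.05 over all genes against 40.43 to 59.37 for the other 11 arrays. The drug's target pathway was checked first. Dusp6, the ERK phosphatase that ERK itself switches on, lay between 11.68 and 12.24 on the 6 DMSO arrays and between 3.68 and 5.24 on the 6 trametinib arrays, where a level of 4.86 bounds background signal. Of the 7 melanocyte markers, Tyr, Tyrp1, Dct and Mlana lay under that level on all arrays, and of the 7 only Mitf was called with trametinib, at 1.22 ± 0.28 (SE, adjusted p = 0.0077) in +dox cells, with 0.83 in −dox cells (adjusted p = 0.058).

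With trametinib, nuclear respiratory chain genes were called lower more often than higher in both kinds of cell. In −dox cells this split did not hold once the arrays were centred on their median. In −dox cells 7 of the 37 genes were lower and 2 higher, beside 10.8% of all genes called lower and 11.6% called higher. In +dox cells 12 were lower and 2 higher, beside 12.5% lower and 13.8% higher among all genes. Genes with a mean above the background level were called more often, with 15.5% lower in −dox and 18.2% lower in +dox cells. The 37 genes held 18.9% and 32.4%, so their −dox share lay near that of such genes. The median change of the 37 genes was −0.13 in −dox and −0.23 in +dox cells, against 0.06 and 0.02 over all genes. On the arrays themselves, 10 genes in −dox and 19 in +dox cells lay lower on each of the 3 trametinib arrays than on any DMSO array, which is 27% and 51.4% of the set against 15.2% and 18.6% of all genes. The opposite order was seen for 4 genes in each kind of cell, or 10.8% of the set, against 20.4% and 22.1% of all genes. Tfam, Atp5a1, Atp5c1, Uqcrc2, Uqcrfs1 and Ndufa10 were lower and Ndufa1 higher in both kinds of cell. The difference between the kinds of cell passed the test for no gene, and differences between complexes were not tested.

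**Figure D1:**
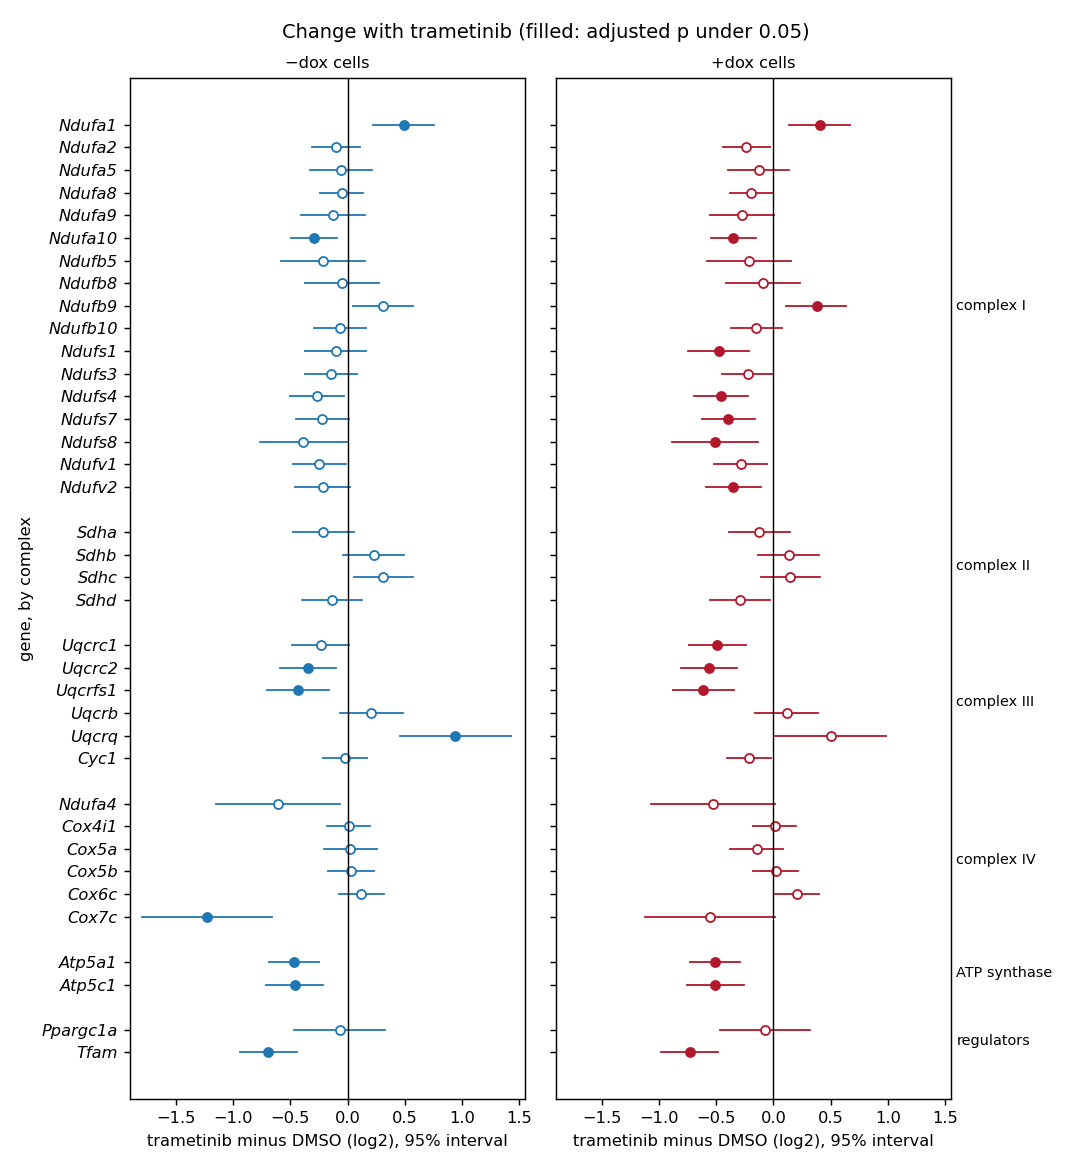
Change with trametinib of each gene, by complex, as trametinib minus DMSO on the log2 scale (x axis) with its 95% interval, in −dox cells (left) and +dox cells (right). Filled points passed an adjusted p of 0.05: 9 genes on the left and 14 on the right, with Tfam, both ATP synthase genes, Uqcrc2, Uqcrfs1 and Ndufa10 on the lower side of both.

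In −dox cells the count of lower genes rested on single arrays. It was 14 without −dox DMSO replicate 1, when Ndufb5, Ndufs4, Ndufs8, Ndufv2, Sdha, Sdhd and Ndufa4 were called as well. Of the same group, dropping replicate 2 left 3 lower genes and dropping replicate 3 left 4. Dropping replicate 3 of the −dox trametinib arrays also left 4. Cox7c, Atp5a1 and Tfam were called in each of these fits. The 37 genes together lay 0.12 under their 12-array means on −dox DMSO replicate 1 and 0.18 and 0.11 above them on the other 2 arrays of that group. Centring each array on its median, in place of RMA alone, turned the split in −dox cells to 6 higher and 5 lower and that in +dox cells to 2 higher and 15 lower. That centring moved the median of all genes in −dox cells from 0.06 to 0.19, and the median of the 37 genes from −0.13 to 0.0033. In +dox cells 8 to 12 genes were lower whichever array was left out, while the 2 higher calls were both lost without any of the +dox DMSO arrays or without +dox trametinib replicate 2.

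**Figure D2:**
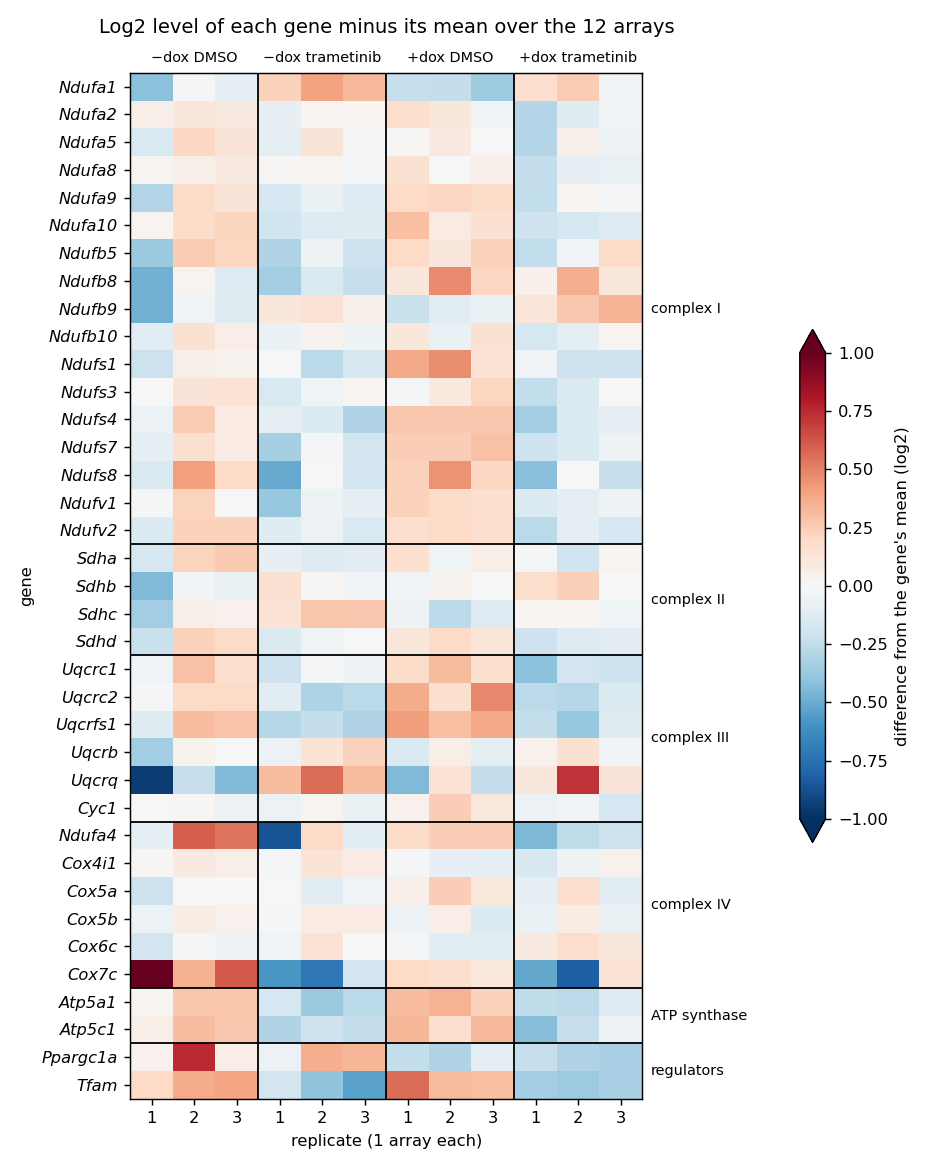
Each gene (rows, by complex) on each of the 12 arrays (columns, by group), coloured by its log2 level minus its own mean over the arrays, with the scale ending at 1 in either direction. The mean over all 37 genes lies between 0.10 and 0.13 on the +dox DMSO columns and at −0.12 on −dox DMSO replicate 1.

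The regulators came apart. Tfam had the smallest adjusted p of the set in both kinds of cell. It lay at 9.38, 9.55 and 9.58 on the −dox DMSO arrays and at 9.0, 8.78 and 8.65 on the −dox trametinib arrays. In +dox cells it lay at 9.74, 9.50 and 9.48 with DMSO and at 8.84, 8.82 and 8.86 with trametinib. Every treated array thus lay under every DMSO array in both kinds of cell. The change was −0.69 ± 0.11 (SE, adjusted p = 0.0013) in −dox and −0.73 ± 0.11 (adjusted p = 0.00072) in +dox cells. A further Tfam probe set, at a mean of 6.97 against 9.18 for the one used, gave −0.06 and −0.12 and did not pass.

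Ppargc1a, the PGC-1α gene, was under the background level on all 12 arrays, by each of its 5 probe sets in the mean. It lay between 3.60 and 4.40 on the −dox arrays and between 3.33 and 3.56 on the +dox arrays. The group means were 3.94 ± 0.40 (SD, n = 3) for −dox DMSO, 3.87 ± 0.23 for −dox trametinib, 3.45 ± 0.10 for +dox DMSO and 3.37 ± 0.05 for +dox trametinib. No level of this transcript could be told from background in any group, with or without the drug, while Mitf lay between 6.56 and 8.70.

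The promoter of Tfam is shown since that gene, by the probe set used, was lower with the drug in both kinds of cell. Those of Uqcrfs1 and Ndufa1 are examples of a member that fell and a member that rose. Each run gives the 250 bases before the annotated start, 5′ to 3′ on the gene's own strand, from RefSeq (GRCm38.p6). Tfam is at chr10:71238045-71238294, Uqcrfs1 at chr13:30545317-30545566 and Ndufa1 at chrX:37191239-37191488, all on the minus strand. Capitals mark an ETS core in Tfam, the motif that GABP binds, whose first letter is 47 bases before the start, and a YY1 core, on the opposite strand, in Ndufa1, 160 bases before the start. The Uqcrfs1 run holds none of the 5 motifs searched.
Tfam: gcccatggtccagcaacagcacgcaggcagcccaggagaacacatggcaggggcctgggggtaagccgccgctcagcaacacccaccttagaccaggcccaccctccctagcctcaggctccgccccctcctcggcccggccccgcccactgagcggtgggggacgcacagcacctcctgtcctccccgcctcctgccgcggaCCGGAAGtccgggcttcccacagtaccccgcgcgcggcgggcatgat
Uqcrfs1: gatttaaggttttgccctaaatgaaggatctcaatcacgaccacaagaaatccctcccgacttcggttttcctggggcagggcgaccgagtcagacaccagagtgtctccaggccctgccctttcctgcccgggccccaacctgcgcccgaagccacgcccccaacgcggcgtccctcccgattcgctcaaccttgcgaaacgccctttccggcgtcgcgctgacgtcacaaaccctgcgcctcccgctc
Ndufa1: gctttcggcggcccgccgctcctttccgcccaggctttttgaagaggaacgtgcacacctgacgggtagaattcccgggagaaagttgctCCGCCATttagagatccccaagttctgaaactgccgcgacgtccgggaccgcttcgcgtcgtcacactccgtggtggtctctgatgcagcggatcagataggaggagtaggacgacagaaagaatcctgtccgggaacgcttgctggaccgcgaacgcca

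Factors known for control of respiratory genes were then looked for by their letters in the 300 bases around the start (250 before and 50 after, both strands). Of the 37 genes, 26 had an entry. Not listed were Ndufa2, Ndufb9, Ndufs1, Sdhc, Uqcrc2, Uqcrb, Uqcrq, Cyc1, Cox4i1, Cox6c and Atp5a1. The NRF1 core GCATGCGC was in 3 of 26 (Ndufa8, Sdhb, Uqcrc1), or 11.5%, against 3.05% of the 27025 genes with a promoter. The ETS core CCGGAAG was in 5 (Ndufs3, Ndufs8, Sdhb, Sdhd, Tfam), or 19.2%, against 9.93% of genes. The YY1 core ATGGCGG was in 6 (Ndufa1, Ndufa5, Ndufa9, Ndufb5, Ndufs4, Ndufs7), or 23.1%, against 4.69%. The E-box CACGTG and the ERR site AAGGTCA were each in 1 member, Ndufv1 and Sdhd, or 3.85%, against 8.09% and 5.38%. The YY1 letters stand by Ndufa1, which was higher with trametinib, and by Ndufs4 and Ndufs7, which were lower in +dox cells by the probe sets used. They also stand by Ndufa5, Ndufa9 and Ndufb5, which were called in neither kind of cell.

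Complex I, the NADH dehydrogenase, had 17 genes. In −dox cells 1 was lower and 1 higher, or 5 lower and 1 higher without −dox DMSO replicate 1. In +dox cells 6 were lower and 2 higher. With all arrays, 5.88% were called each way in −dox cells, under the 10.8% lower and 11.6% higher of all genes. In +dox cells it was 35.3% lower and 11.8% higher, beside 12.5% and 13.8%. The median change of the 17 genes was −0.13 in −dox and −0.24 in +dox cells. The 6 lower genes in +dox cells were Ndufa10, Ndufs1, Ndufs4, Ndufs7, Ndufs8 and Ndufv2. Of these, Ndufs1, Ndufs7, Ndufs8 and Ndufv2 are core subunits that hold iron-sulfur clusters in the arm that reaches into the matrix, while Ndufs4 and Ndufa10 are accessory subunits. The higher genes, Ndufa1 and Ndufb9, are small accessory subunits of the membrane arm.

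Ndufa1 lay at 11.78, 12.17 and 12.10 on the −dox DMSO arrays and at 12.42, 12.59 and 12.51 with trametinib. In +dox cells it lay at 11.96, 11.95 and 11.83 with DMSO and at 12.36, 12.44 and 12.15 with trametinib. The groups did not overlap in either kind of cell. The rise was 0.49 ± 0.12 (adjusted p = 0.013) in −dox and 0.40 ± 0.12 (adjusted p = 0.028) in +dox cells. Ndufb9 lay at 12.25, 12.36 and 12.40 on the +dox DMSO arrays and at 12.59, 12.74 and 12.81 with trametinib, a change of 0.38 ± 0.12 (adjusted p = 0.037). In −dox cells its change was 0.31 ± 0.12 and missed the threshold (adjusted p = 0.086), although those arrays did not overlap either. A further Ndufb9 probe set, at a mean of 11.88, was higher in −dox cells as well (0.33, adjusted p over all probe sets = 0.039). A dim one at 5.13 was called in +dox cells only.

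Ndufs1, the largest core subunit, lay at 10.59, 10.68 and 10.36 on the +dox DMSO arrays and at 10.18, 10.01 and 10.01 with trametinib, a change of −0.48 ± 0.12 (adjusted p = 0.013). On the −dox arrays the groups overlapped, with means of 10.17 ± 0.15 (SD, n = 3) with DMSO and 10.07 ± 0.14 with trametinib, and the change of −0.10 did not pass (adjusted p = 0.6). Ndufs8 lay at 11.49, 11.71 and 11.47 on the +dox DMSO arrays and at 10.84, 11.26 and 11.03 with trametinib, a change of −0.51 ± 0.17 at an adjusted p of 0.047. That call was the least secure of the 12, since 8 of 16 other settings at the threshold of 0.05 lost it. The −dox change of Ndufs8, −0.39, did not pass (adjusted p = 0.14). It passed with the arrays paired by replicate number (adjusted p = 0.016).

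Ndufa10 was called lower in both kinds of cell, by −0.29 ± 0.09 (adjusted p = 0.039) and −0.35 ± 0.09 (adjusted p = 0.014). The −dox call was kept in 8 of 16 other settings. In −dox cells the lowest DMSO array lay at 11.23 and the highest trametinib array at 11.08. A dim further probe set of Ndufa10, at a mean of 5.41, was called higher in +dox cells (0.64, adjusted p over all probe sets = 0.032). Ndufs4 was lower in +dox cells by the probe set used (−0.46 ± 0.11, adjusted p = 0.0079) and by a further one (−0.54, adjusted p over all probe sets = 0.0061). Another Ndufs4 probe set was higher in both kinds of cell (0.71 and 0.80). Ndufb8 gave −0.05 and −0.09 by its brightest probe set, neither past the threshold, while a dimmer one at 6.87 was higher by 1.40 and 1.31. Probe sets of a gene can read different transcripts, so for Ndufa10, Ndufs4 and Ndufb8 the direction is that of the probe set. A further Ndufv2 probe set, at a mean of 11.06, was lower in −dox cells too (−0.30, adjusted p over all probe sets = 0.04). A dimmer one at 10.685 was not called there (adjusted p over all probe sets = 0.064).

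Complex II, succinate dehydrogenase, also a Krebs cycle enzyme, is the part of the chain with no subunit from mitochondrial DNA. None of its 4 genes was called in any comparison by limma with the probe sets and settings used throughout. With trametinib 10.8% of all genes were lower and 11.6% higher in −dox cells, and 12.5% and 13.8% in +dox cells. Shares of that size give few calls among 4 genes. At an unadjusted p under 0.05, Sdhc was higher in −dox cells and Sdhd lower in +dox cells. Sdha, the flavoprotein, changed by −0.21 (95% interval −0.48 to 0.06) in −dox and −0.12 (−0.39 to 0.15) in +dox cells. Sdhb, the iron-sulfur subunit, changed by 0.23 (−0.04 to 0.49) and 0.13 (−0.13 to 0.40). The membrane anchors pointed apart: Sdhc gave 0.31 (0.06 to 0.57) and 0.15 (−0.11 to 0.41), Sdhd −0.13 (−0.40 to 0.13) and −0.29 (−0.55 to −0.03). The smallest fall called in complex III was −0.35 in −dox and −0.49 in +dox cells. The intervals of Sdhd in both kinds of cell and of Sdha in −dox cells reach that size. Those of Sdhb and Sdhc, and of Sdha in +dox cells, do not. Without −dox DMSO replicate 1, Sdha and Sdhd were called lower in −dox cells, as they were with array weights. Other calls in −dox cells were on the higher side. They were Sdhc with array weights and at an adjusted p of 0.1, and Sdhb and Sdhc with arrays centred on their median. In +dox cells Sdhd was called lower with the mean of its probe sets, further quantile normalisation, centring on the median, array weights, or only the arrays compared. Its dimmer probe set was lower in +dox cells too (−0.39, adjusted p over all probe sets = 0.046).

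Complex III, the cytochrome bc1 complex, showed its largest falls in the Rieske protein and the core proteins. Uqcrfs1, the Rieske iron-sulfur protein, lay at 11.33, 11.76 and 11.74 on the −dox DMSO arrays and at 11.17, 11.21 and 11.15 with trametinib. In +dox cells it lay at 11.87, 11.75 and 11.83 with DMSO and at 11.21, 11.07 and 11.33 with trametinib. All treated arrays lay under all DMSO arrays of their kind of cell. The change was −0.43 ± 0.12 (adjusted p = 0.025) in −dox and −0.61 ± 0.12 (adjusted p = 0.0032) in +dox cells. The −dox call was kept in 10 of 16 other settings and the +dox call in all 16.

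Uqcrc2, a core protein, lay at 11.10, 11.31 and 11.32 on the −dox DMSO arrays and at 11.02, 10.81 and 10.85 with trametinib. In +dox cells the values were 11.49, 11.28 and 11.60 with DMSO and 10.86, 10.84 and 10.98 with trametinib. Its change was −0.35 ± 0.11 (adjusted p = 0.043) in −dox and −0.56 ± 0.11 (adjusted p = 0.0031) in +dox cells. The −dox call was lost in 8 of 16 other settings and the +dox call in none. Uqcrc1, the other core protein, was lower in +dox cells (−0.49 ± 0.11, adjusted p = 0.0071) and gave −0.24 in −dox cells, which did not pass (adjusted p = 0.17).

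Uqcrq, a small subunit of complex III, went the other way. It lay at 10.12, 10.84 and 10.63 on the −dox DMSO arrays and at 11.39, 11.63 and 11.39 with trametinib, so the groups did not overlap. The rise was 0.94 ± 0.22 (adjusted p = 0.011). In +dox cells it lay between 10.63 and 11.21 with DMSO and between 11.18 and 11.79 with trametinib, and the change of 0.50 ± 0.22 did not pass (adjusted p = 0.13). It passed once the replicate numbers were used to pair the arrays (adjusted p = 0.012). This Uqcrq probe set is of a kind that can match several transcripts, and the 3 others of the gene are near or under background. Uqcrb, another small subunit, and Cyc1, cytochrome c1, did not pass in either kind of cell, with 0.21 and 0.12 for Uqcrb and −0.02 and −0.22 for Cyc1.

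Complex IV, cytochrome c oxidase, had 6 genes with a median change of 0.02 in −dox and −0.07 in +dox cells. It had 1 call, lower in −dox cells, or 16.7% of its genes. That lies beside 10.8% of all genes and near the 15.5% of genes with a mean above background. Cox7c, a small structural subunit, lay at 8.93, 8.06 and 8.32 on the −dox DMSO arrays and at 7.12, 6.99 and 7.51 with trametinib, which did not overlap. The change was −1.23 ± 0.26 (adjusted p = 0.0057), the largest of the set, and it passed in all 16 other settings. The other Cox7c probe set gave −1.26 and was called too. The probe set used, at a mean of 7.70, is of the kind that can match several transcripts, and the other lies at 5.96. In +dox cells Cox7c lay at 7.90, 7.88 and 7.81 with DMSO and at 7.19, 6.89 and 7.84 with trametinib, and the change of −0.56 ± 0.26 did not pass (adjusted p = 0.15).

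Ndufa4, long counted as a complex I subunit and now placed with complex IV, gave −0.61 ± 0.25 in −dox (adjusted p = 0.11) and −0.53 ± 0.25 in +dox cells (adjusted p = 0.15). With the arrays paired by replicate number the +dox change passed (adjusted p = 0.045). Cox4i1, a nuclear subunit, gave 0.01 in each kind of cell, with a 95% interval of −0.18 to 0.20. Cox5b gave 0.03 and 0.02, Cox5a 0.02 and −0.15, and Cox6c 0.12 and 0.21. None of these passed.

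**Figure D3:**
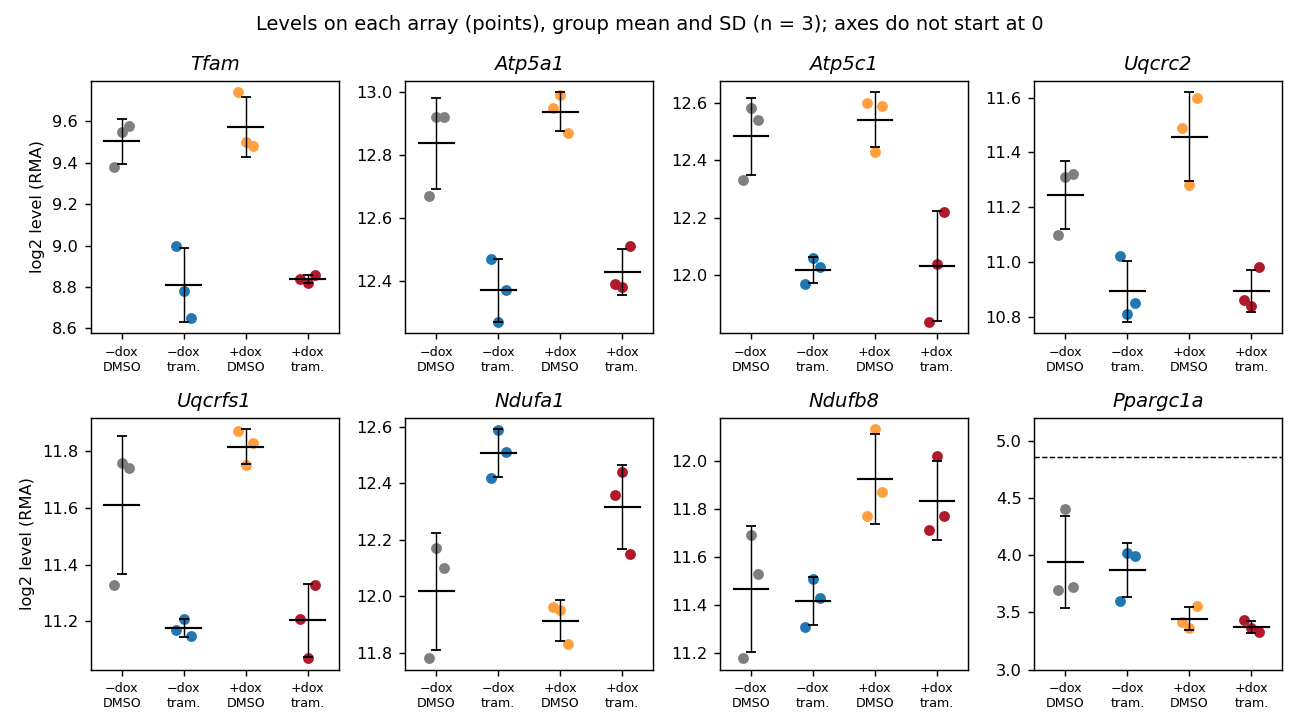
Log2 level of 8 genes on each array (points) in the 4 groups, with the group mean (line) and SD (bar, n = 3). Tfam, Atp5a1, Atp5c1, Uqcrc2 and Uqcrfs1 are lower on the trametinib arrays of both kinds of cell, Ndufa1 is higher, Ndufb8 is higher on +dox than −dox arrays, and Ppargc1a lies under the dashed background level of 4.86. The vertical axes differ and do not start at 0.

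Both genes of ATP synthase encode subunits of its catalytic F1 part, α (Atp5a1) and γ (Atp5c1). Both were lower with trametinib in both kinds of cell and by nearly the same amount. Of all genes, 10.8% were lower in −dox and 12.5% in +dox cells. Atp5a1 lay at 12.67, 12.92 and 12.92 on the −dox DMSO arrays and at 12.47, 12.27 and 12.37 with trametinib. In +dox cells it lay at 12.95, 12.99 and 12.87 with DMSO and at 12.39, 12.38 and 12.51 with trametinib. The change was −0.47 ± 0.10 (adjusted p = 0.0064) and −0.51 ± 0.10 (adjusted p = 0.0029).

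Atp5c1 lay at 12.33, 12.58 and 12.54 on the −dox DMSO arrays and at 11.97, 12.06 and 12.03 with trametinib. In +dox cells it lay at 12.60, 12.43 and 12.59 with DMSO and at 11.84, 12.04 and 12.22 with trametinib. No treated array of either gene reached a DMSO array of its kind of cell. The change of Atp5c1 was −0.46 ± 0.11 (adjusted p = 0.013) and −0.51 ± 0.11 (adjusted p = 0.0064). Its further probe set at a mean of 6.96 gave −1.17 and −1.24 without passing, and one of Atp5a1 at 12.17 gave −0.21, which did not pass, and −0.30, which did. A dimmer Atp5a1 probe set gave −0.02 and −0.42, and neither passed.

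**Figure D4:**
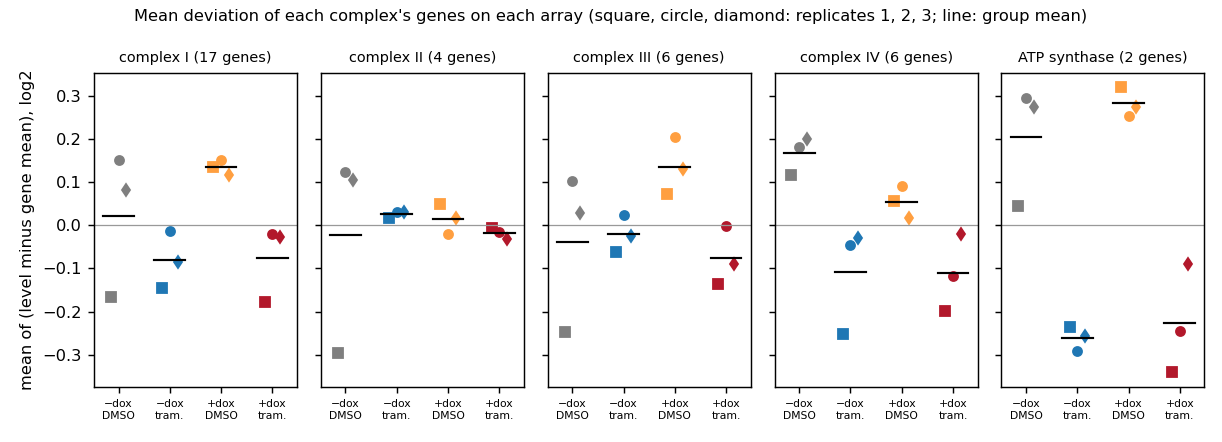
Mean over the genes of each complex of the log2 level minus the gene's 12-array mean, on each array (square, circle and diamond for replicates 1, 2 and 3) with the group mean as a line. The 2 ATP synthase genes separate the DMSO arrays (0.04 to 0.32) from the trametinib arrays (−0.34 to −0.09). So do the 6 complex IV genes, more narrowly (0.02 to 0.20 against −0.25 to −0.02). Complexes I, II and III do not, and the −dox DMSO square lies lowest of its group in each panel.

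Induction of the 3 factors gave no call among these genes. Between +dox and −dox cells under DMSO, limma called none of the 37, beside 2.87% of all genes higher and 3.28% lower, and the smallest adjusted p was 0.1. At an unadjusted p under 0.05, 2 genes were higher and 2 lower. The median change was 0.07, and −0.02 without −dox DMSO replicate 1. Between +dox and −dox cells under trametinib none was called either, beside 1.95% higher and 1.42% lower, with a smallest adjusted p of 0.19, 1 gene on each side at an unadjusted p under 0.05 and a median of −0.01. For Tfam the difference under DMSO was 0.07 (95% interval −0.18 to 0.32), and for Atp5a1 0.10 (−0.12 to 0.32).

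Ndufb8, an accessory subunit of complex I, was the member nearest to a call. It lay at 11.18, 11.69 and 11.53 on the −dox DMSO arrays and at 11.77, 12.13 and 11.87 on the +dox DMSO arrays. Under trametinib it lay at 11.31, 11.51 and 11.43 on the −dox arrays and at 11.71, 12.02 and 11.77 on the +dox arrays. All 3 +dox arrays lay over all −dox arrays with either treatment. The difference was 0.46 ± 0.15 under DMSO (adjusted p = 0.1) and 0.42 ± 0.15 under trametinib (adjusted p = 0.19). With the arrays paired by replicate number both passed, at an adjusted p of 0.018 and 0.035, so 1 gene was called in each comparison where there had been 0. Its dimmer probe set gave 0.29 and 0.21 without passing.

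Among the others, Ndufs1 differed by 0.37 ± 0.12 under DMSO (adjusted p = 0.1) and by −0.0033 under trametinib (adjusted p = 1). Cox7c differed by −0.57 ± 0.26 under DMSO (adjusted p = 0.24) and by 0.10 under trametinib. Complex by complex, the medians under DMSO were 0.08 for complex I, 0.015 for complex II, 0.175 for complex III, −0.09 for complex IV and 0.08 for ATP synthase. Under trametinib they were −0.01, −0.02, −0.05, −0.0033 and 0.035 in the same order. Without −dox DMSO replicate 1 the DMSO medians were −0.02, −0.13, 0.10, −0.12 and −0.0017, so those of complexes I and II and ATP synthase changed sign. Across the 37 genes, 6 lay higher and 3 lower on all +dox than on all −dox DMSO arrays, or 16.2% and 8.11%, near the 11.3% and 11.1% of all genes.

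The responses to trametinib of +dox and −dox cells were compared directly, as the difference between the changes. No member passed, with a smallest adjusted p of 0.44 and none under an unadjusted p of 0.05, beside 0.258% of all genes called higher and 0.0715% lower. The median difference was −0.09, and 0.0017 without −dox DMSO replicate 1. The smallest p-values were those of Ndufs1 (−0.37, 95% interval −0.75 to 0.0033), Cox7c (0.67, −0.13 to 1.47) and Uqcrc1 (−0.25, −0.60 to 0.10). Calls in +dox cells alone, such as those of the iron-sulfur subunits of complex I, are not shown to differ from the −dox response. For Tfam the difference was −0.04 (−0.39 to 0.31).

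Genes that build or serve the chain were read from lists of related genes. Of 76 genes of the mitochondrial ribosome, which translates the subunits encoded in mitochondrial DNA, 16 were lower and 7 higher with trametinib in −dox cells. In +dox cells 28 were lower and 2 higher. That was 21.1% lower and 9.21% higher in −dox cells, beside 10.8% and 11.6% of all genes. In +dox cells it was 36.8% and 2.63%, beside 12.5% and 13.8%. Without −dox DMSO replicate 1 the −dox count was 27 lower and 5 higher. In +dox cells Mrps10 gave −1.14 ± 0.21 (adjusted p = 0.002) and Mrpl52 −0.93 ± 0.11 (adjusted p = 0.00016), while Mrpl20 rose in both kinds of cell, by 0.87 and 0.91. The median of the list was −0.11 in −dox cells (−0.23 without that array) and −0.33 in +dox cells. Under DMSO, 3 of the list were higher in +dox than −dox cells, and 1 without −dox DMSO replicate 1. The 3 genes were 3.95% of the list, near the 2.87% of all genes.

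Of 20 regulators of mitochondrial gene expression, 10 were lower and 2 higher in +dox cells. In −dox cells 3 were lower and 1 higher (5 lower without −dox DMSO replicate 1). That was 50% lower and 10% higher in +dox cells, beside 12.5% and 13.8% of all genes. In −dox cells it was 15% and 5%, beside 10.8% and 11.6%. Of genes with a mean above background, 15.5% were lower in −dox and 18.2% in +dox cells. Lower in both were Polg2, the accessory subunit of the mitochondrial DNA polymerase, Twnk, the helicase, and Ssbp1, which binds single strands of that DNA. Pprc1, a coactivator of the PGC-1 family, lay at 8.55, 9.02 and 9.12 on the +dox DMSO arrays and at 7.53, 7.84 and 7.21 with trametinib, a change of −1.37 ± 0.19 (adjusted p = 0.0004). Gabpb1, a subunit of the ETS factor GABP, lay at 7.75, 8.01 and 8.53 and at 6.78, 7.06 and 6.82 in the same groups, a change of −1.21 ± 0.26 (adjusted p = 0.0053). Both were also higher in +dox than −dox cells under DMSO, by 0.73 (adjusted p = 0.048) and 1.05 (adjusted p = 0.039), although 1 of these 2 calls was lost without −dox DMSO replicate 1. Nrf1, which binds the NRF1 motif above, was among the lower genes in +dox cells, at −0.57. The higher ones were Mitf and Gabpb2, and in −dox cells Esrra.

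Of 19 genes of the Krebs cycle and pyruvate dehydrogenase, 6 were lower in −dox and 9 in +dox cells, and Pdha1 was higher in both. The lower genes were 31.6% and 47.4% of the list, beside 10.8% and 12.5% of all genes. Those of −dox cells included Pdk4, a kinase of pyruvate dehydrogenase and not an enzyme of the cycle. Pdk4 was also lower in +dox than −dox cells under DMSO (−1.95). Suclg2, a succinyl-CoA ligase subunit, lay between 10.55 and 11.06 on the 6 DMSO arrays and between 9.14 and 9.49 on the 6 trametinib arrays, with a change of −1.47 ± 0.12 (adjusted p = 3.3e-05) and −1.63 ± 0.12 (adjusted p = 1.2e-05). Fh1, fumarase, gave −1.15 in +dox cells.

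Subunits outside the set were read in the same way. Of 16 other complex I subunits, 1 was lower and 2 higher in −dox and 3 lower and 1 higher in +dox cells, with Ndufab1 at −0.60 and Ndufv3 at 0.51. The lower genes were 6.25% and 18.8% of that list, beside the 10.8% and 12.5% of all genes. Of 13 other ATP synthase subunits, 2 and 3 were lower (15.4% and 23.1%) and none higher, among them Atp5g2 at −0.58 and −0.56, and the list's median was −0.12 and −0.17. Unlike Atp5a1 and Atp5c1, the mean over these 13 overlapped between treatments in −dox cells, where −dox DMSO replicate 1 lay at −0.05 and −dox trametinib replicate 2 at 0.03. None of 4 other complex IV subunits and none of 4 further genes of complex III and cytochrome c were called by limma. At an unadjusted p under 0.05, 1 gene of each list passed in −dox cells, and of the complex IV list 1 in +dox cells. Among assembly factors, 2 and 4 of 14 for complex I were lower (14.3% and 28.6%), led by Ndufaf6 at −0.73 and −1.28. Of 22 for complexes II to V, 1 was lower and 4 higher in −dox cells (4.55% and 18.2%). In +dox cells 4 were lower and 2 higher (18.2% and 9.09%). All genes gave 10.8% lower and 11.6% higher in −dox cells, and 12.5% and 13.8% in +dox cells. Genes with a mean above background gave 15.5% lower in −dox and 18.2% lower in +dox cells. Without −dox DMSO replicate 1, the −dox counts were 4 lower and 1 higher for complex I assembly. They were 2 lower and 1 higher for complexes II to V. In +dox cells Sco2, a copper chaperone for complex IV, gave −1.41 ± 0.17 (adjusted p = 0.00016). Cox7a1, the muscle isoform of a complex IV subunit, was higher with trametinib in both, from a −dox mean of 5.53 to 7.0, and from a +dox mean under background to 6.17. Cox6b2, the testis isoform, was the only one of 6 isoform genes that differed between +dox and −dox cells, under trametinib (1.87, adjusted p = 0.013).

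Of 10 genes of fatty acid oxidation, Cpt1a was higher and Acadl lower with trametinib in both kinds of cell, and Acadm was higher in +dox cells. Of 6 antioxidant and uncoupling genes, Sod2, the mitochondrial superoxide dismutase, was higher (1.31 and 0.78) and Txnrd2 lower (−0.66 and −0.76) in both.

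**Figure D5:**
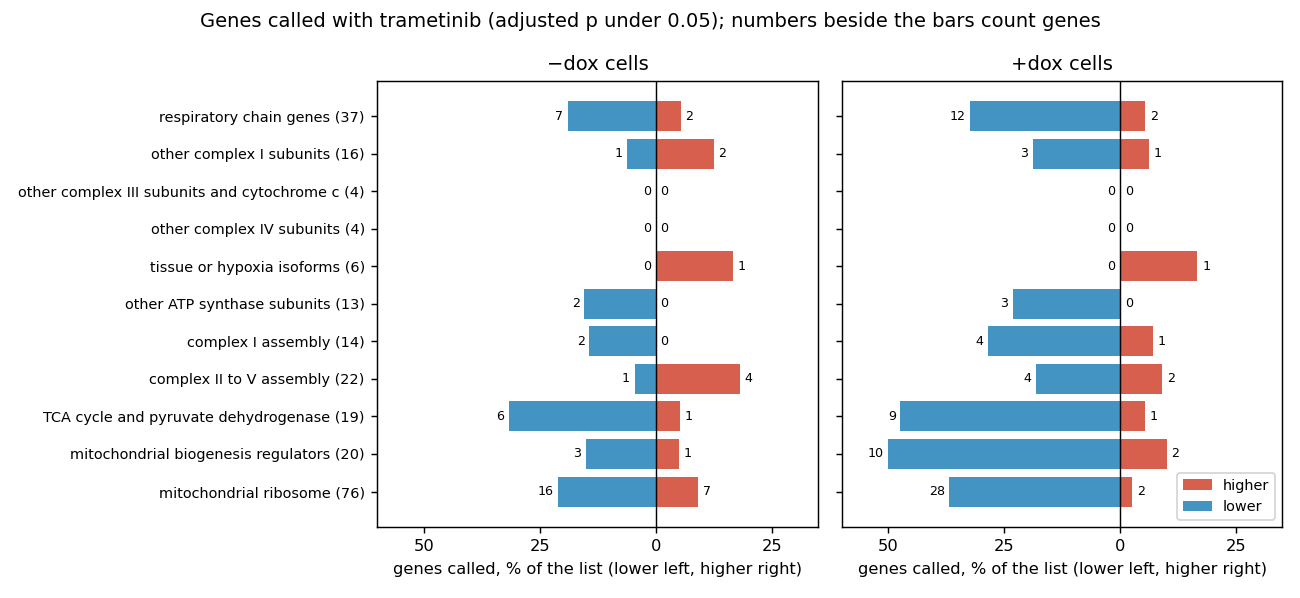
Share of each list called lower (left of 0) and higher (right of 0) with trametinib, in percent of the genes measured, in −dox and +dox cells, with the number of genes beside each bar and the list size in brackets. The mitochondrial ribosome, the biogenesis regulators and the Krebs cycle list lean to the lower side most in +dox cells, with 28, 10 and 9 genes. These are 36.8%, 50% and 47.4% of their lists, beside 12.5% of all genes.

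Markers of cell division moved with the drug as well. All 11 proliferation genes, among them Mki67 and Top2a, were lower with trametinib, with log2 changes from −3.03 to −1.64 in −dox cells and from −2.27 to −1.15 in +dox cells. In addition, all 10 genes of the ERK output list were lower in both. Their part in the shift of the respiratory chain genes was not tested. In RNA from whole cultures, fewer cells of a kind and less RNA per cell cannot be told apart. Of 7 leukocyte markers, Ptprc lay under background on all arrays. Cd3g was higher in +dox than −dox cells with either treatment and rose with trametinib in +dox cells (4.18). Itgam was higher in +dox cells under DMSO (2.46) and lower with trametinib in +dox cells (−1.88), with 2 of its 12 arrays above background. Cd3e was higher with trametinib in −dox cells (0.35). Of 6 fibroblast markers, 3 were higher with trametinib in each kind of cell (Col1a1, Col3a1 and Dcn), Pdgfra was lower in −dox cells, and 4 lower in +dox than in −dox cells under DMSO. Their part in the results above was not tested.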

How the data were processed

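RNA of 12 samples, 3 in each of 4 groups, was hybridised to Affymetrix GeneChip arrays of the mouse genome. The authors normalised the arrays by RMA in Chipster and deposited log2 expression values per probe set. The number of arrays limits the precision. RMA makes arrays share a distribution, so a shift of all genes would not be seen. Of 45101 probe sets, 34945 carried a single gene in the platform annotation, 932 carried several and were left out, and 64 were controls. The probe set with the highest mean over 12 arrays stood for a gene, which gave 18193 genes. Background is the percentile 95 of 86 probe sets of receptors chosen as silent, a log2 level of 4.86.

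Changes were fitted by limma 3.58.1 in R 4.3.3 as group means over all 12 arrays, with the Benjamini-Hochberg adjustment over 18193 genes and a threshold of 0.05. Adjusted p-values of further probe sets were taken over all probe sets. The script was tested on simulated data. Members and lists were chosen with earlier results of these data known. Named were Ppargc1a, Tfam, Dusp6, up to 2 called members a direction, complex and comparison with arrays that do not overlap and the largest change, the extremes of each complex, up to 3 called genes a direction of other lists, both probe sets where the signs of a called change differ, and the 3 smallest p-values of the difference. Ndufb8 in the paired fits was named after its values were seen.

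Labels give replicates 1 to 3 in each group. Same-numbered arrays deviated together in every pair for trametinib in +dox cells (correlations 0.253, 0.451 and 0.16). They did so too for +dox against −dox under DMSO (0.344, 0.17 and 0.225) and under trametinib (0.286, 0.212 and 0.271). For replicate 3, an array of another number correlated more for trametinib in +dox cells (0.188) and for +dox against −dox under DMSO (0.312). The pairing is thus uncertain, and paired values are given where they change the call of a member. Promoters came from RefSeq (GRCm38.p6). Plots used Python 3.11.15 and matplotlib 3.10.9.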

Additional observations from a re-analysis of the deposited data

Results flagged for a closer look

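The response of Cd3g to trametinib differed between +dox and −dox cells by 4.05 ± 0.28 on the log2 scale (SE, adjusted p = 0.00023 by limma for the difference between the responses). Cd3g, whose protein is part of the T cell receptor complex, lay between 3.12 and 3.62 on the 6 −dox arrays, under the background level of 4.86, so the size of the difference depends on signal that is background. It lay at 4.59, 4.98 and 4.91 on the +dox DMSO arrays and at 8.78, 9.43 and 8.81 on the +dox trametinib arrays. Ptprc, which marks leukocytes, was under background on all 12 arrays, between 2.75 and 3.04. No respiratory chain gene differed in this way.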

How the results depend on the processing

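In −dox cells the main count with trametinib was 2 higher and 7 lower. Higher genes numbered 1 without probe sets of the _s_at or _x_at kind, 6 with arrays centred on their median, 4 with array weights, 0 at an adjusted p of 0.01, 4 at 0.1, 0 with a fold change over 2 and 1 with only the arrays compared. Lower genes numbered 4 with the mean of the gene's probe sets, 17 with array weights, 3 at 0.01, 1 with the fold change and 4 with only the arrays compared. Leaving out 1 array gave 1 to 2 higher and 3 to 14 lower. In +dox cells the main count was 2 higher and 12 lower. Higher genes numbered 0 after further quantile normalisation, 4 with array weights, 0 at 0.01 and 0 with the fold change. Lower genes numbered 7 at 0.01 and 0 with the fold change. Leaving out 1 array gave 0 to 1 higher and 8 to 12 lower. For +dox against −dox cells under DMSO, higher genes numbered 1 with the replicate block, 2 when centred (Ndufb8 and Ndufs1) and 1 with array weights, against 0. Under trametinib, 1 was higher with the replicate block, against 0. The difference between the responses gave 0 calls in every setting tried. At the threshold of 0.05 without a fold change limit, Cox7c and Tfam in −dox cells were called in all 16 other settings. So were Tfam, Uqcrc1, Uqcrc2, Uqcrfs1 and Atp5a1 in +dox cells. Of these, only Cox7c was still called with a fold change over 2.

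Ndufa10 turned to 0.13 in −dox and 0.145 in +dox cells with the mean of its probe sets, since its dimmer probe set has the opposite sign. The cause of the other changes was not tested. With the replicate block the count in +dox cells was 3 higher and 13 lower. In −dox cells same-numbered arrays hardly deviated together for replicate 3 (correlations 0.298, 0.456 and 0.022). The block gave 2 higher and 9 lower there, with Ndufs8 and Ndufa4 added. Adjustment over all probe sets, and the lists without −dox DMSO replicate 1, were chosen after seeing the data.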
